A study of Mus musculus with 12 samples.

Results

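Hepatocytes take up bile acids from blood, secrete them into bile and can return them to blood, and 7 genes of these steps were followed: Slc10a1, Slco1a1 and Slco1b2 for uptake, and Abcb11, Abcb4, Abcc2 and Abcc3 for export. They were found by name in the gene column of the deposited clique tables of both ages, and are 7 of the 16197 gene names listed in either table, of which 9595 protein-coding genes could be matched to the RefSeq annotation. The data come from H3K27ac Hi-ChIP, in which ends of DNA that lie near each other in the nucleus are ligated and fragments with acetylated lysine 27 of histone H3, a mark of active promoters and enhancers, are recovered with an antibody. The old group was male C57BL/6 mice aged 25 months and the young group male C57BL/6 mice aged 5 months, obtained at 23 and 3 months and housed for 2 months before use. Each age had 6 libraries of isolated hepatocytes, from 2 biological replicates in 3 batches of technical repeats, and 1 network was deposited per age.

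Bile acids are made from cholesterol in hepatocytes and circulate between liver and gut. At the sinusoidal membrane, which faces blood, the sodium-coupled carrier NTCP (Slc10a1) takes up conjugated bile acids, and the sodium-independent carriers OATP1A1 (Slco1a1) and OATP1B2 (Slco1b2) take up bile acids and other organic anions. At the canalicular membrane, which faces bile, the pump BSEP (Abcb11) secretes bile acids, MDR2 (Abcb4) moves phosphatidylcholine into bile, and MRP2 (Abcc2) secretes conjugates such as bilirubin glucuronides, while MRP3 (Abcc3) exports conjugates and bile acids across the basolateral membrane back to blood. The receptor FXR (Nr1h4) senses bile acids, pairs with RXR (Rxra), and raises transcription of Abcb11 and of the repressor SHP (Nr0b2).

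A node is a 5 kb bin of the genome, a clique is a set of nodes as the depositors grouped them, and clique size is counted in nodes. The old network held 40304 nodes in 5973 cliques and the young network 56928 nodes in 5401 cliques, with a mean clique of 6.75 nodes in old and 10.5 in young. Contact counts behind the networks are unknown. With 1 network per age, no spread between animals could be computed and no test was possible, so the values describe these 2 networks. Of 10 hepatocyte marker genes, 9 were listed in the old network and 9 in the young. None of 7 Kupffer cell and 6 lymphocyte markers was listed at either age. Of 6 sinusoidal endothelial markers, 1 was listed in old (Lyve1) and 3 in young (Lyve1, Pecam1 and Oit3), and of 6 stellate and 6 cholangiocyte markers none was listed in old and 1 of each in young (Reln and Spp1). Cliques also overlapped markers without listing them. The largest at each marker had 8 nodes in old and 15 in young for Cd79a (lymphocyte), and 10 and 13 for Stab2 (endothelial). It had 2 in old alone at Csf1r (Kupffer) and 2 in young alone at Sox9 (cholangiocyte). At Pecam1 it had 2 in old and 88 in young, where the clique listing Pecam1 had 4. At Oit3 it had 3 in old. The part of other cells in the results below was not tested, and a smaller share of a cell type cannot be told apart from less signal per cell.

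Each of the 7 genes was listed in exactly 1 clique per age. In old, 6 of the 7 genes had the smaller clique, compared with 81.5% of the 6257 protein-coding genes listed at both ages, and when each size is divided by its network's mean 3 of 7 did, compared with 51.0% of all genes. Abcc3 alone had the larger clique in old, compared with 13% of all genes. In old the sizes ran from 4 to 80 nodes with a median of 29, and in young from 21 to 76 with a median of 42. As log2((old + 1)/(young + 1)), in which -1 marks a 2-fold smaller old clique, the median was -0.58 over the transporter genes and -0.63 over all genes listed at both ages. A difference past 2-fold toward a smaller old clique was reached by 3 of the 7, Slco1a1, Slco1b2 and Abcc2, compared with 35.7% of all genes, and none passed 2-fold in the other direction, compared with 3.77%. No gene had cliques of equal size, compared with 5.53% of all genes. The counts lie near the background and are no result about the transporters as a group. The individual genes stood at different places in the distribution: 7.78% of all genes had a lower log2 value than Slco1a1, 11.1% a lower one than Slco1b2 and 27.5% a lower one than Abcc2, whereas the figure was 51.2% for Slc10a1, 55.7% for Abcb4, 72.8% for Abcb11 and 88.3% for Abcc3. After dividing each size by its network's mean, Slco1a1, Slco1b2 and Abcc2 were the 3 of 7 that were smaller in old. All log2 values given relative to the mean size add 1 to each divided size, which is a whole mean clique and draws the values toward 0. The median of all genes was then -0.01. On that scale Abcc2 no longer passed 2-fold.

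**Figure D1:**
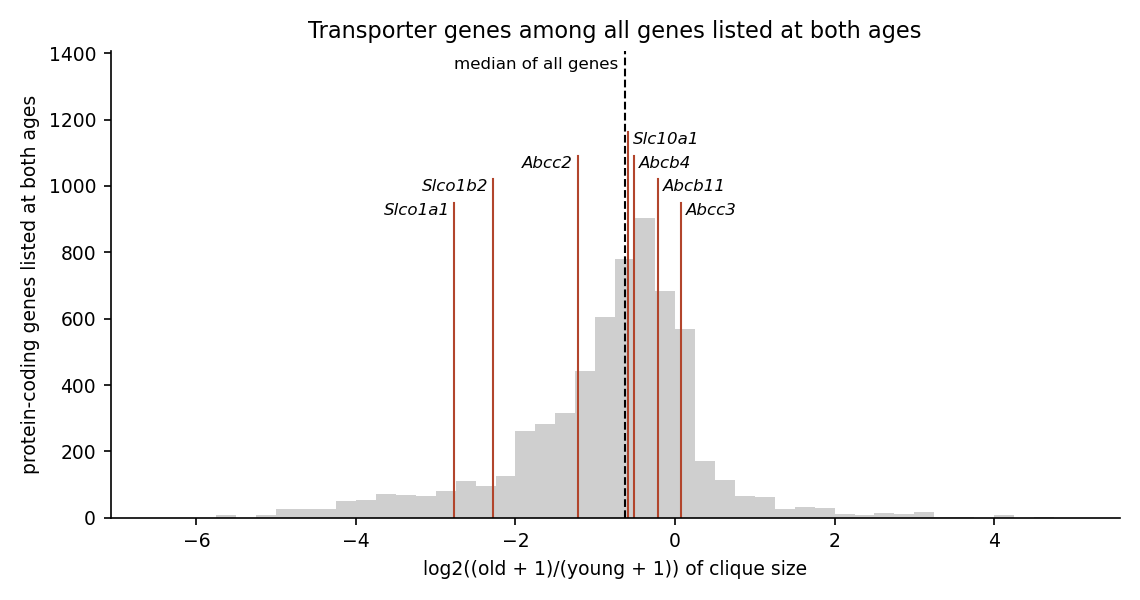
The grey histogram shows log2((old + 1)/(young + 1)) of clique size (x axis) for the 6257 protein-coding genes listed at both ages (y axis, number of genes), red lines mark the transporter genes and the dashed line marks the median of -0.63. Slc10a1, Abcb4, Abcb11 and Abcc3 lie at or right of the median, Abcc2 left of it, and Slco1a1 and Slco1b2 in the left tail.

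A RefSeq promoter was matched for 6 of the 7 genes, all but Abcc3, with 2 start sites for Slc10a1. In all 6 the bin with the start site was a node at both ages and belonged to the clique that lists the gene. Among the 6376 promoters of protein-coding genes listed at both ages the bin was a node at both ages for 89.4%. Fewer of the 11 bins centred on the start site were nodes in old than in young at each of the 6 genes, as at 63.4% of those 6376 promoters. The counts were 4 and 8 for Abcb11, 6 and 11 for Abcb4, 7 and 9 for Abcc2, 9 and 11 for Slc10a1, 4 and 9 for Slco1a1, and 3 and 7 for Slco1b2. For Abcc3, the gene left out, 18 of the 21 bins over the gene span and 25 kb around it were nodes at each age.

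Promoter sequence is shown for Abcb11, a known FXR target, and for the 3 genes past 2-fold, as the 250 bases before the start site on the gene's strand, GRCm38.p6, RefSeq. Capitals mark matches on either strand to the nuclear receptor hexamer AGGTCA, to its inverted repeat AGGTCANTGACCT (IR-1, the form FXR with RXR is known to bind) or its direct repeat AGGTCANAGGTCA (DR-1, a form HNF4A is known to bind) with at most 1 mismatch, or to the hexamer GTTAAT of the HNF1 motif.
Abcb11, chr2:69342617-69342866, minus strand: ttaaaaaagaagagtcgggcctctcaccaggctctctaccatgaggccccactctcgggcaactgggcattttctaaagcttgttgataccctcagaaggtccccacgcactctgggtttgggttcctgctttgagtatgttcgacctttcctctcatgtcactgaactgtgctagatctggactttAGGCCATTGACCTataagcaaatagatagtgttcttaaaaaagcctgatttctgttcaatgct
Slco1b2, chr6:141629268-141629517, plus strand: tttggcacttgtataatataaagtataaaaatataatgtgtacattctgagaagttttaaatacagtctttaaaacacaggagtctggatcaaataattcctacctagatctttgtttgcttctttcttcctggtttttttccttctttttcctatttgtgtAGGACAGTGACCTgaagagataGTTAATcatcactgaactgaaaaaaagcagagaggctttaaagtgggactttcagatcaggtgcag
Slco1a1, chr6:141946963-141947212, minus strand: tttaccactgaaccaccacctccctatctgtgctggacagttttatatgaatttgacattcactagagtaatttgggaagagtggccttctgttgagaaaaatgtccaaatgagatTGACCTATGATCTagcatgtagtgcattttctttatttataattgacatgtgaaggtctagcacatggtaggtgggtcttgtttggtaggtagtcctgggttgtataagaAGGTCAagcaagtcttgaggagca
Abcc2, chr19:43782058-43782307, plus strand: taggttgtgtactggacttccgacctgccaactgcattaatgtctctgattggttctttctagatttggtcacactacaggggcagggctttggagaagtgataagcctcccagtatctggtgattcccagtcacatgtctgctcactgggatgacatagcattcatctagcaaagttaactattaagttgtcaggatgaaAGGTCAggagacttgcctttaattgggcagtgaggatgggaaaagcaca

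The AGGTCA hexamer occurred in 5 of the 7 promoter sequences of the 6 genes, and in 14% of the 32851 promoters of the RefSeq table. No exact IR-1 was found in them, while 2 promoters of the table held one. With 1 mismatch allowed, IR-1 occurred in the promoters of Abcb11 and Slco1b2 and in 26 of the 32851 (0.0791%). Abcb11 held AGGCCATTGACCT, from 63 to 51 bases before the start site, which carries T4C with positions counted from the first base of the repeat. Slco1b2 held AGGACAGTGACCT, from 88 to 76 bases before its start site, which carries T4A. A DR-1 with 1 mismatch (G3A) lay in the Slco1a1 promoter on the opposite strand, between 134 and 122 bases before the start site, compared with 0.484% of the table, and no exact DR-1 was found. The HNF1 hexamer was in Slco1b2 alone of the 7 sequences and in 6.43% of the table, and its palindrome GTTAATNATTAAC in none of the 7, with or without 1 mismatch. The letters TATAAA occurred in 3 of the 7 sequences, of Slc10a1, Slco1a1 and Slco1b2, compared with 12.4% of the table. The matches began 209 and 99 bases before the start site in Slco1a1. In Slc10a1 the match began 128 bases before the start site at 80968705, whereas AGGTCA lay before the other, at 80968079. The TATAAA matches of both genes were on the opposite strand. In Slco1b2 they began 234 and 227 bases before it, on the gene's strand. These are matches of letters within 250 bases and not measured binding.

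The sodium-coupled uptake gene Slc10a1 (chromosome 12, 80953185 to 80968705) was in a large clique at both ages, which covered the whole gene. Its clique had 49 nodes over 735 kb in old and 74 nodes over 840 kb in young, a log2 value of -0.58, and 0.04 relative to each network's mean size. Relative to other genes the size was nearly equal, at percentile 89.2 of genes listed in old and percentile 89.0 of those in young. All 5 bins of the gene and the 2500 bp around it were nodes at both ages. The cliques shared 44 bins, a Jaccard index (shared bins divided by bins in either) of 0.557, compared with a median of 0.421 over all genes. Young bins without an old counterpart lay farther out: the 44 shared bins had a median distance of 78.7 kb from the start site, and the 27 young bins absent from the old network 139 kb. A further 3 young bins formed an old clique of their own with 3 nodes. Counting an old node within 5 kb as a match, 65 of the 74 young bins were matched.

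The sodium-independent carriers Slco1b2 (chromosome 6, 141629452 to 141686646) and Slco1a1 (141907281 to 141946962), whose start sites lie 317 kb apart, shared 1 clique in young and none in old. The young clique had 33 nodes from 141520001 to 142045000 and listed Slco1c1, Slco1b2, Slco1a4, Gm30784, Slco1a1 and Gm6614. In old, Slco1a1 was listed alone in a clique of 4 nodes, Slco1b2 with Gm30784 in a clique of 6, and Slco1a4 alone in a clique of 3. The log2 value was -2.77 for Slco1a1 and -2.28 for Slco1b2, and since both had the same young clique these are not independent. Divided by each network's mean size, the cliques were 0.593 in old and 3.13 in young for Slco1a1, and 0.889 and 3.13 for Slco1b2. With 1 added to each, the log2 values were -1.37 and -1.13. The added 1 weighs more on these divided sizes than on the node counts. By the span of the clique, 350 kb in old and 525 kb in young, Slco1b2 was within 2-fold, at -0.58. Within the 105 bins of the young stretch, 13 were nodes in old and 35 in young. Of the 33 young bins, 22 were absent from the old network, and the other 11 lay in the 3 old cliques, with 5, 2 and 4 bins in those of Slco1b2, Slco1a4 and Slco1a1. Such a spread is not particular to the pair, since 38.3% of the 6257 genes listed at both ages had a young clique over 3 or more old cliques. The share of young bins present in old was 33.3% (95% Wilson interval 19.8 to 50.4, counting error only, with bins taken as independent), compared with 62.8% over the young cliques that list a gene of both ages. Counting an old node within 5 kb as a match gave 17 of 33, and within 10 kb 22 of 33. The Jaccard index of the old and young cliques was 0.121 for Slco1a1 and 0.147 for Slco1b2, below the median of 0.421 over all genes.

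The old cliques of the pair interleaved along the chromosome. All 4 nodes of the old Slco1a1 clique lay nearer to that gene's start site, at 0.538, 15.5, 20.5 and 90.5 kb from it. Of the 6 nodes of the old Slco1b2 clique, 4 lay within 28 kb of the Slco1b2 start site, and 2 lay nearer to Slco1a1, 1 of them 10.5 kb from the Slco1a1 start site and 328 kb from that of Slco1b2. A node beside Slco1a1 was therefore grouped with Slco1b2 in old, although the genes were listed apart. Over the gene body of Slco1a1 and 2500 bp on each side, 1 of 10 bins was a node in old and 7 in young, and over Slco1b2 3 of 13 in old and 6 in young. All nodes of each gene span were in the listing clique, but Slco1a1 had only 1 node in old, which cannot show a split. Over the Slco1a1 span and 25 kb around it, the 4 old nodes lay in 2 cliques, 3 of them in the listing clique. Slco1c1, a thyroid hormone carrier of the same family, was listed in no old clique and had no old node in its span, against 2 young nodes.

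**Figure D2:**
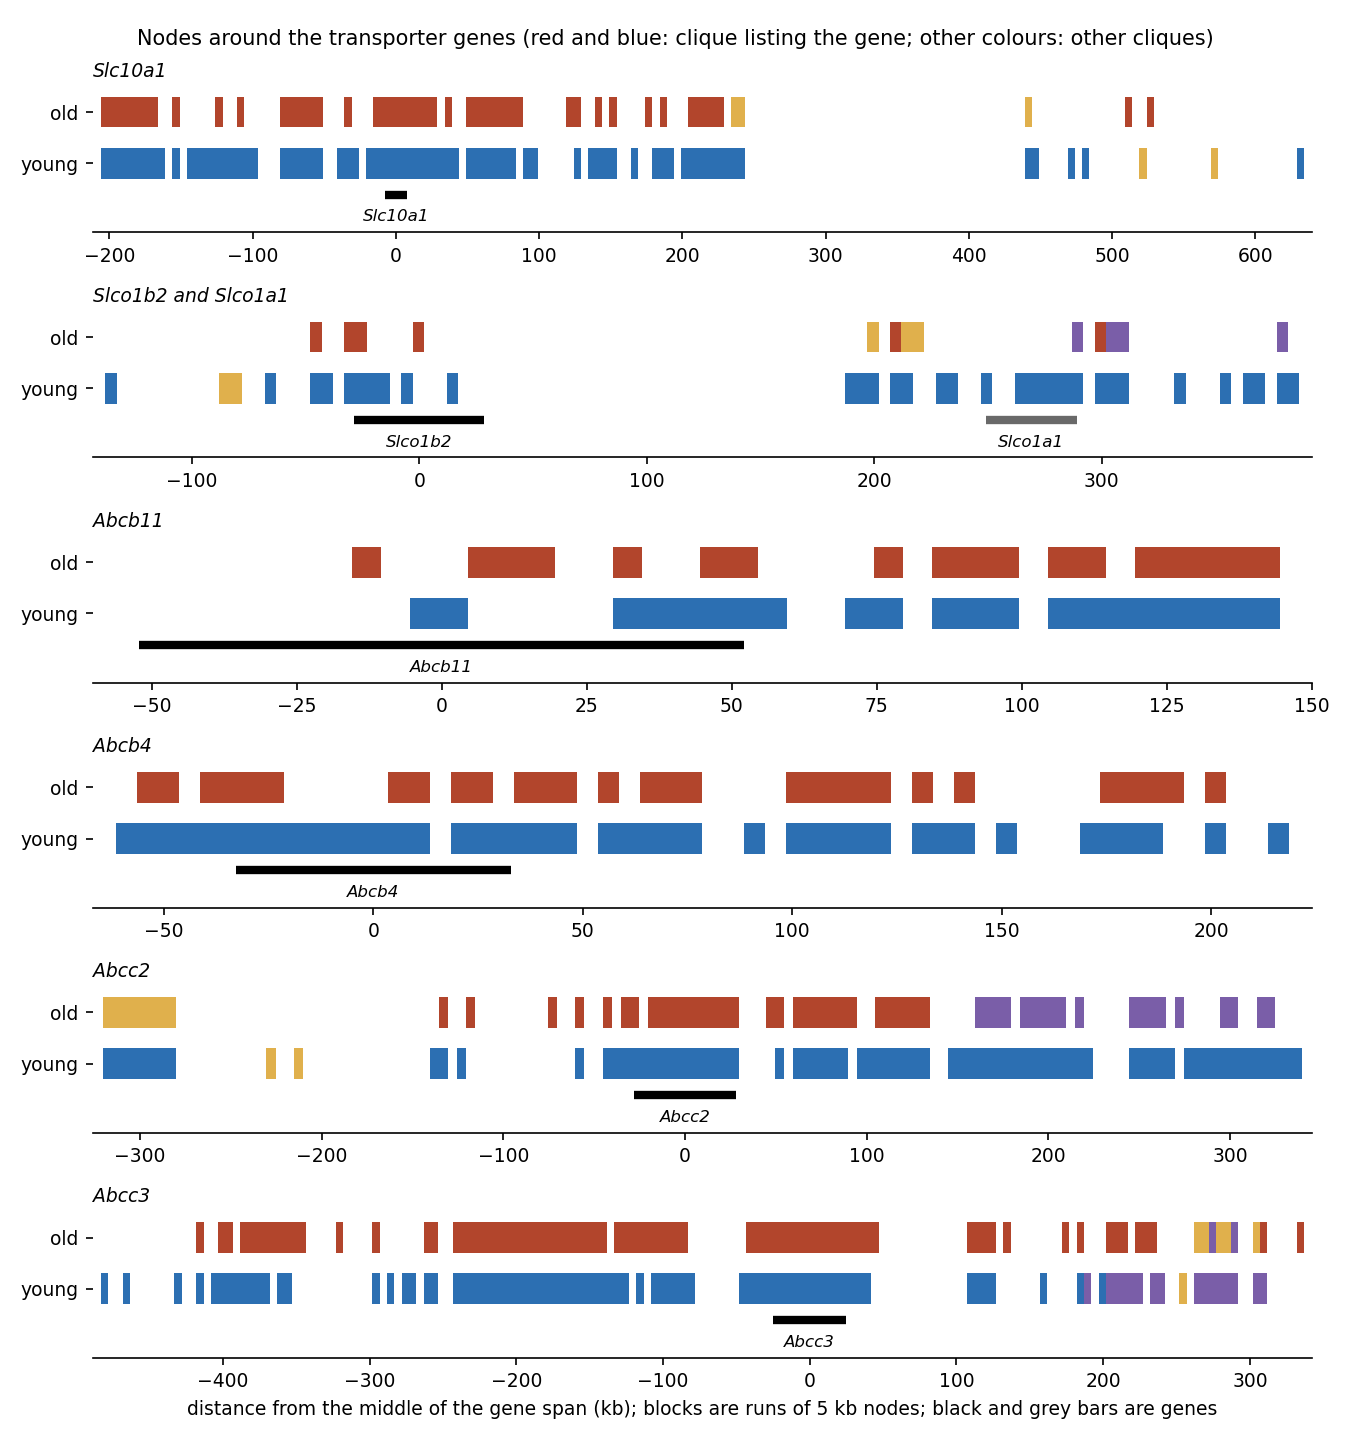
Each panel maps 1 locus, with old above young, by distance in kb from the middle of the gene span, and coloured blocks are runs of 5 kb nodes. Red (old) and blue (young) blocks belong to the clique that lists the gene and other colours to other cliques; in the Slco panel the purple old blocks are the Slco1a1 clique and the yellow ones the Slco1a4 clique, and in the Abcc2 panel the single young clique of 76 nodes faces old cliques of 8 (yellow), 32 (red) and 19 (purple) nodes.

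Abcb11 (chromosome 2, 69238282 to 69342616), the bile acid pump of the canaliculus, was in the smallest young clique of the 7 and differed little in size between ages. Its clique had 18 nodes over 160 kb in old and 21 nodes over 150 kb in young, a log2 value of -0.21 (0.29 relative to each network's mean size), so in old it was smaller in nodes and longer in span. By rank among listed genes it stood higher in old, at percentile 58.2, than in young, at percentile 43.4. The cliques shared 14 bins, a Jaccard index of 0.56. All 14 old bins found in the young network and all 14 young bins found in the old lay in the partner clique, and none in another clique. The nodes themselves were partly different within the gene: of 23 bins over the gene and 2500 bp around it, 7 were nodes in old and 8 in young, and 3 were nodes at both. The 7 young bins absent from old lay near the start site, at a median of 19.9 kb, and the 14 shared bins at 49.9 kb. Counting an old node within 5 kb as a match, however, 20 of the 21 young bins were matched, and within 10 kb all 21.

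Abcb4 (chromosome 5, 8893614 to 8959226), the phospholipid transporter, was in 1 clique at each age with fewer nodes inside the gene in old. The clique had 29 nodes over 260 kb in old and 42 over 280 kb in young, a log2 value of -0.52, and 0.09 relative to each network's mean size. Of the 29 old nodes 28 were in the young clique (96.6%, Wilson 82.8 to 99.4), the Jaccard index was 0.651, and 83.9% of all genes had a lower one. Of 15 bins over the gene and its flanks, 8 were nodes in old and 14 in young. The old clique was therefore nearly a subset of the young, with 14 young bins absent from old and none in another old clique. Counting a neighbouring bin within 5 kb as a match, 36 of the 42 young bins were matched.

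Abcc2 (chromosome 19, 43782308 to 43838332), the canalicular exporter of conjugates, was in a clique of 32 nodes over 270 kb in old and of 76 nodes over 660 kb in young, a log2 value of -1.22. The gene body was covered at both ages, with 12 of 14 bins as nodes in old and 13 in young. What differed was the reach of the clique. Of its 76 young bins 54 (71.1%, Wilson 60.04 to 80.04) were present in old, but in 3 cliques in a row: 8 bins in a clique of 8 nodes from 43490001 to 43530000 that listed Got1, 28 bins in the clique of Abcc2 from 43675001 to 43945000, and 18 bins in a clique of 19 nodes from 43970001 to 44135000 that listed Cpn1, Cyp2c23, Erlin1 and Chuk. The remaining 22 bins were absent from old and lay at a median of 245 kb from the Abcc2 start site, against 67.7 kb for the 28 shared bins. Counting an old node within 5 kb as a match, 70 of the 76 young bins were matched. The Jaccard index of the old and young Abcc2 cliques was 0.35, below the median of 0.421 over all genes. Counting shared nodes alone, the sizes were 28 in old and 54 in young. A young clique spread over 3 or more old cliques was common, at 38.3% of the 6257 genes.

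Abcc3 (chromosome 11, 94343295 to 94393017), the basolateral exporter, had the largest clique of the 7 at both ages, tied with Abcc2 in young, and was the 1 gene with a larger clique in old. The clique had 80 nodes over 755 kb in old and 76 nodes over 685 kb in young, a log2 value of 0.07, and 0.65 relative to each network's mean size. Only 8 of the 5973 old cliques were of that size or more, against 58 of the 5401 young cliques at the young size. All 12 bins over the gene and its flanks were nodes at both ages. Its old and young cliques shared 63 bins, with the highest Jaccard index of the 7, 0.677. The borders differed: 6 further old bins lay in a neighbouring young clique of 19 nodes that listed Acsf2, Lrrc59, Eme1, Mrpl27 and Xylt2, and 11 old bins were absent from young, while 13 young bins were absent from old.

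**Figure D3:**
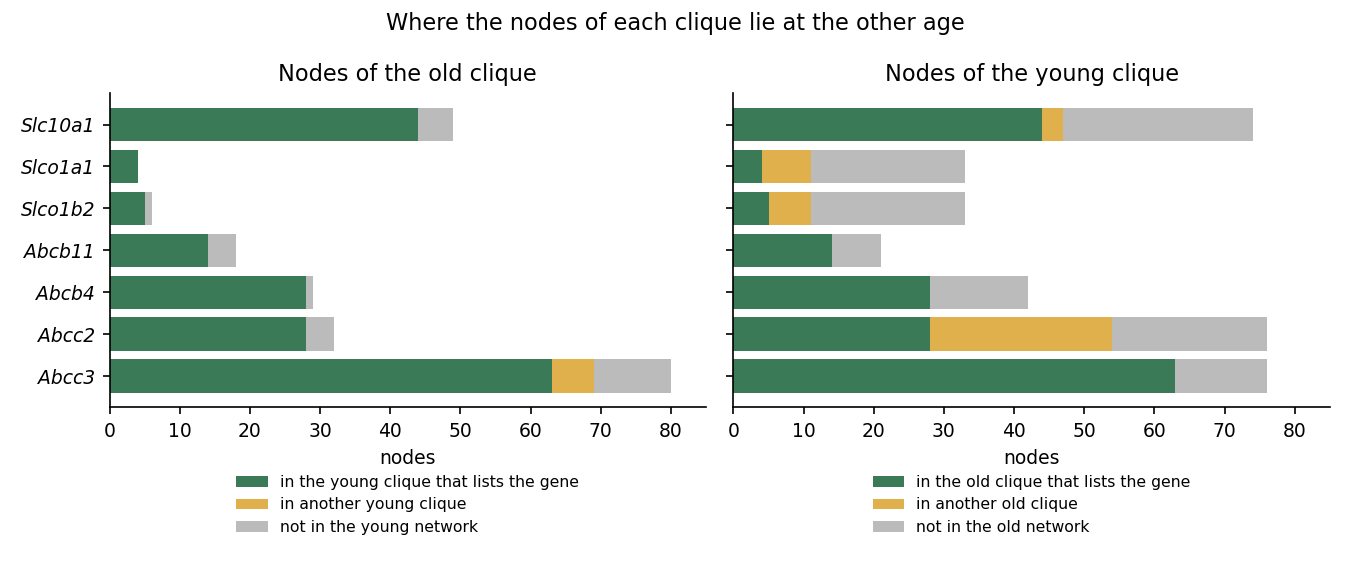
Stacked bars give the number of nodes (x axis) of each gene's old clique (left) and young clique (right), divided by whether the same bin at the other age lay in the clique that lists the gene (green), in another clique (yellow) or outside the network (grey). Most old nodes are green for every gene, the young cliques of Slco1a1 and Slco1b2 are mostly grey (22 of 33), and the young clique of Abcc2 has 26 of 76 nodes in other old cliques.

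Pooled over the distinct cliques, 192 of the 218 old bins were found in the young network (88.1%, Wilson 83.1 to 91.7) and 217 of the 322 young bins in the old (67.4%, Wilson 62.1 to 72.3). Over all cliques that list a protein-coding gene of both ages, the transporter cliques included, the shares were 86.7% of old bins and 62.8% of young bins. These lie within the intervals, which is no test. The intervals cover counting error only and take bins as independent, although the bins came from 7 old and 6 young cliques. Among the genes, the share of young bins present in old was lowest for the Slco pair, at 33.3%, followed by Slc10a1 at 63.5%, Abcb11 and Abcb4 at 66.7% each, Abcc2 at 71.1% and Abcc3 at 82.9% (Wilson 72.9 to 89.7).

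In all, 33 pairings of a transporter with another gene occurred at both ages. How often pairings are kept between ages over all genes was not computed, so these counts are no result about the transporters. Abcb11 was listed with Dhrs9, a retinol and steroid dehydrogenase, at both ages. With Abcb4, all 7 genes listed in old were among the 8 of young. Of these 7, those with a RefSeq position were, nearest first, Crot, a peroxisomal carnitine octanoyltransferase, Gm15610, Gm40264 and Tmem243. For Abcc2, 7 of the 8 old genes were among the 16 young ones (87.5% of the old list and 43.8% of the young), among them Dnmbp, Cutc, Cox15, an enzyme of heme A synthesis, Entpd7, Gm50217 and BC037704. Slc10a1 shared 8 genes of 9 in old and 12 in young, including Srsf5, a splicing factor, Gm20337, Smoc1, Susd6, Ccdc177 and Mir3067. Abcc3 shared 9 of 15 genes in old and 13 in young, including Ankrd40, Gm21885, Spata20, Wfikkn2, Tob1, an antiproliferative factor, and B230206L02Rik. Slco1a1 had no gene beside it in old, against 5 in young, of which Gm6614, Gm30784 and Slco1a4 are the nearest, and Slco1b2 had Gm30784 alone in old, against 5 in young.

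Most other genes of bile acid handling listed at both ages had smaller cliques in old, as had 81.5% of all such genes, so their direction is no result about bile acid genes. By percentile rank 7 of 14 other transporters, 5 of 15 synthesis genes, 5 of 15 sensing genes and 3 of 7 anchoring genes listed at either age were smaller in old, beside 41.4% of all genes listed at both ages. The sets differ, since 2 other transporters, 2 sensing genes and 2 anchoring genes were listed in young alone. Such genes have size 0 in old and are smaller on any scale. Of the 9595 protein-coding genes listed at either age, with an unlisted gene at size 0, 78.5% were smaller in old, 17.9% larger and 3.61% equal, and 48.6% passed 2-fold lower and 11.9% 2-fold higher. Among 18 other transporters of bile acids and biliary lipid, 12 were listed at both ages, of which 9 were smaller in old, 1 equal (Slc51b, 2 nodes at each age) and 2 larger, with a median log2 value of -0.86. Slco1a4, the carrier that shared the young Slco clique, had 3 nodes in old and 33 in young, and Tmem30a, a subunit of phospholipid flippases, 3 and 15. Abcg5, a sterol transporter of the canaliculus, was unlisted in old and in a clique of 3 nodes in young. The larger ones by listing, chosen after their values were seen, were the organic anion carrier Slc22a7, with 35 nodes in old and 11 in young, and the Abcg5 partner Abcg8, with 7 and 3. Taking the largest clique that overlaps the gene in place of the listed one turned the direction for Abcg8 and Abcg5, with 7 nodes in old and 56 in young for Abcg8, and 7 in old and 3 in young for Abcg5.

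Of 18 genes of bile acid synthesis and conjugation, 15 were listed at both ages, 13 of them smaller in old, 1 equal (the bile acid-CoA ligase Slc27a5, 30 nodes at each age) and 1 larger, with a median of -0.74. The larger one was Slc27a2, an acyl-CoA synthetase chosen after its values were seen, with 20 nodes in old and 18 in young. Cyp27a1 and Cyp7b1, of the alternative pathway, had 2 nodes each in old, against 85 and 29 in young, and the largest old clique overlapping Cyp27a1 had 6. Hsd17b4, a peroxisomal enzyme of side chain shortening, had 2 nodes in old and 9 in young, and Cyp8b1, the sterol 12-alpha-hydroxylase, 18 and 49. Among 16 genes of bile acid sensing and transporter control, 13 were listed at both ages. Of these, 12 were smaller and 1 larger in old, with a median of -0.30. Relative to each network's mean size 6 of the 15 listed at either age were smaller, among them 2 listed in young alone. Hnf4a, a hepatocyte transcription factor, was listed in young alone, with 65 nodes, and the largest old clique overlapping it had 25. Fgfr4, the hepatic receptor for the gut hormone FGF15, was likewise listed in young alone, with 16 nodes against 2 by overlap in old. Klb, the co-receptor of Fgfr4, had 10 nodes in old and 37 in young, and Nr1i2, the xenobiotic receptor PXR, 21 and 57. Nr0b2, chosen after its values were seen, was the larger one, with 22 nodes in old and 9 in young. Of 11 genes of canalicular anchoring and trafficking, 5 were listed at both ages and all 5 were smaller in old, with a median of -0.61. Myo5b, a motor of apical recycling, had 2 nodes in old and 58 in young, although an old clique of 25 overlapped it, and the membrane linker Rdx, which anchors canalicular proteins to actin, had 19 and 31. Ezr, a membrane linker related to Rdx, and Hax1, a protein known to bind Abcb11, were listed in young alone, with 5 nodes and 4. The largest old clique overlapping Ezr had 2 nodes, and none overlapped Hax1. Relative to each network's mean size, 4 of the 7 anchoring genes listed at either age were smaller, among them the 2 listed in young alone.

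**Figure D4:**
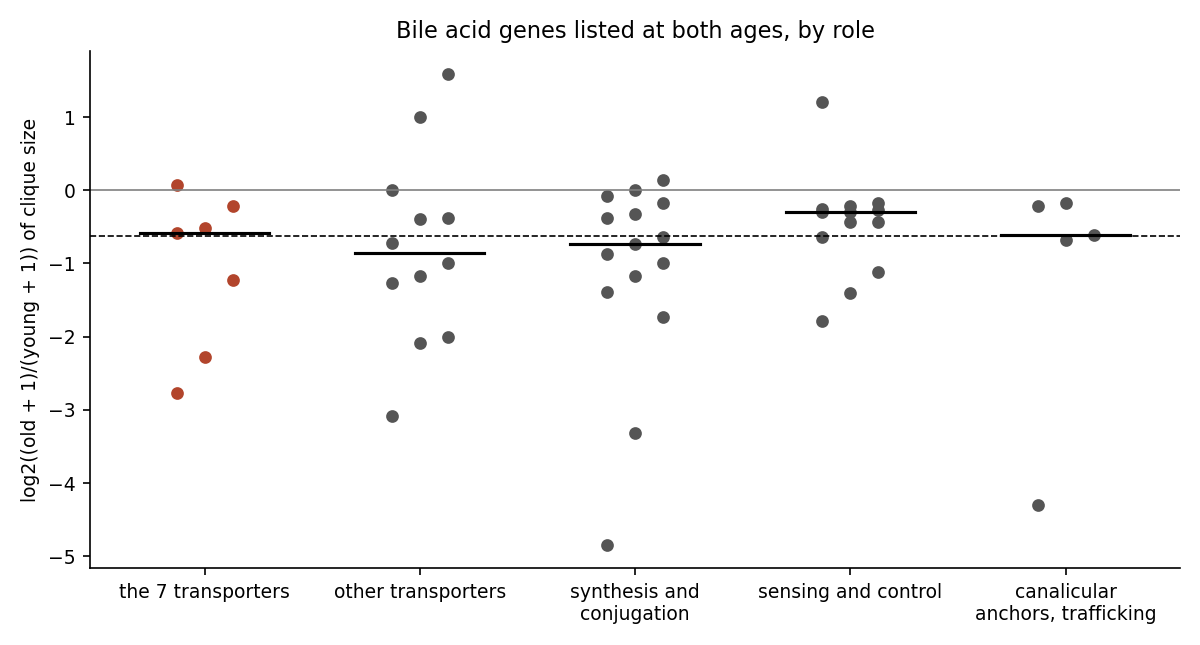
Points give log2((old + 1)/(young + 1)) of clique size (y axis) for the genes of each role listed at both ages, solid bars the median of each list and the dashed line the median of all genes, -0.63. The medians, as clique sizes are deposited, run from -0.86 in other transporters to -0.30 in sensing and control, with the 7 transporters at -0.58; relative to each network's mean size, 3 of the 7 are below 0.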

How the data were processed

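Per the labels' protocols, livers were perfused, digested with collagenase and spun at low speed to pellet hepatocytes. The authors deposited 1 network per age, with no replicate or batch named, as 4 tables: the positions of the nodes, and the cliques with their number of nodes, gene names and node names, per the file headers. Bowtie2 and HiC-Pro, with the builds mm10 and GRCm38, are named in the submitters' processing notes. Not given in the sources used here are the loop caller, its thresholds, how libraries were combined, how cliques were formed and how genes were assigned to them. On inspection every node was 5 kb and in exactly 1 clique.

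Bins were matched by position (overlap of at least 1 bp). For each gene the largest clique listing it was taken. The difference called was 2-fold in log2((old + 1)/(young + 1)). The same 1 was added where sizes had first been divided by the mean clique size of the network. Gene positions are from RefSeq GRCm38.p6, matched by symbol or a unique synonym. Computation used Python 3.11.15, pandas 2.3.3, NumPy 2.4.6, SciPy 1.17.1 and matplotlib 3.10.9, and the measures were tested on simulated networks. Wilson intervals are at 95%, cover counting error only and take bins as independent. Members, lists and the naming rule were chosen with earlier results of these data known. Named genes are all members, up to 4 genes of each list by absolute log2 value, and up to 6 nearest genes sharing a member's clique at both ages (otherwise up to 3 nearest of each age). Genes without a RefSeq position could not be ranked by distance. 1 gene that the rule names is not reported here.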

Additional observations from a re-analysis of the deposited data

How the results depend on the processing

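No paired analysis was possible because each age has 1 network without replicate columns, and leaving out a replicate could not be done for the same reason. A pseudocount of 5, minimum clique sizes of 3 and 5 nodes and the sum over listing cliques left 6 members smaller in old. So did the clique reaching the gene span and that at the start site (6 genes). Over all genes listed at both ages, 81.5% to 85.2% were smaller under these settings. The span in kb left 5 members, beside 71.5% of all genes, and shared nodes alone 4, beside 57.8%. Relative to each network's mean size 3 of 7 members were smaller, beside 51.0% of all genes listed at both ages. By percentile rank among listed genes 3 were also smaller, beside 41.4%. By that rank the genes smaller in old were 7 of 14 other transporters, 5 of 15 synthesis genes, 5 of 15 sensing genes and 3 of 7 anchoring genes, and relative to the mean size 9 of 14, 9 of 15, 6 of 15 and 4 of 7 in the same order. These list counts take genes listed at either age, so they include genes listed in young alone, which are smaller on any scale. The shares of all genes take those listed at both ages. Both scales express a size relative to its own network, and the old network had the smaller mean clique. The count past 2-fold was 2 relative to the mean size, without Abcc2, and 4 at a threshold of 1.5-fold, with Slc10a1. In comparisons chosen after seeing the data it was 2 by span, without Slco1b2, and 2 on shared nodes alone, without Abcc2 and with Slco1b2 exactly at the threshold. At a minimum of 5 nodes no old clique was left for Slco1a1. Percentile rank gives no fold, so none was counted. The shares of all genes past the threshold under these alternatives were not computed, so the counts are no result about the transporters. With a bin within 5 kb counted as matched, 95.9% of old and 86.0% of young bins were matched, and within 10 kb 98.6% and 92.5%. Restricted to protein-coding genes, 18 pairings occurred at both ages. Allowing 1 mismatch gave IR-1 in 2 member promoters and DR-1 in 1, with 0 exact. Relative to the mean size Abcb11, at 0.29, Abcb4, at 0.09, and Slc10a1, at 0.04, turned direction. Depth behind either network is unknown.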

Other observations

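Beyond the end of the young Slco clique on chromosome 6, the next Slco genes held no nodes. Slco1a6 (142085761 to 142186177) and Slco1a5 (142234227 to 142322981), OATP family genes next to Slco1a1, were listed in no clique of either age and had no node of either age in the gene or 2500 bp around it. Gm6614, between Slco1a1 and Slco1a6, was listed only in young, in the same clique as Slco1a1, with 1 old and 3 young nodes among its 10 bins.

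Beside Abcb4, its close relatives Abcb1a and Abcb1b, which encode multidrug exporters, were outside its clique as listed. Abcb1a was listed in no old clique and in a young clique of 2 nodes, and Abcb1b at neither age, with 0 old nodes and 1 young node among its 15 bins. The 1 young node belonged to the young clique of 42 nodes that lists Abcb4. These genes were chosen after their values were seen.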
